A study of Rattus norvegicus with 90 samples.

Results

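The kidney-restricted transcripts described here are 200 of the 40071 annotated rat transcripts (Ensembl identifiers beginning ENSRNOT) quantified in liver, kidney and heart of Sprague-Dawley rats given thioacetamide, an organosulfur hepatotoxicant. They were chosen on the levels in vehicle rats alone, in TPM (a length-corrected share of a library, scaled so that all targets sum to 1000000). A transcript qualified when its kidney mean was at least 20 times both its liver mean and its heart mean, with 0.1 TPM added to each, and the 200 members were those of highest kidney mean among 585 that qualified. Male rats, bought at 10 weeks of age and fitted with a jugular catheter before the experiment, received 1 intraperitoneal injection of saline (vehicle, 3 ml/kg), of 25 mg/kg thioacetamide (low) or of 100 mg/kg thioacetamide (high), and organs were taken 8 h or 24 h later. Each of the 18 combinations of organ, dose and time held 5 samples, 90 in all, and liver, kidney and heart were taken from the same rats, so that results in different organs are not independent. The animals of the 8 h study had water and no food after transfer, whereas those of the 24 h study were fed at first, so that time and feeding cannot be told apart. Kidney and heart were powdered whole, so a level is an average over all cell types of the organ, and fewer cells of a type cannot be told apart from less RNA per cell.

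The kidney filters plasma in glomeruli and recovers most of the filtrate along the tubule, and the epithelial cells of each tubule segment carry transporters, channels and enzymes that liver and heart cells use little or not at all. Transcripts of these epithelia make up much of what sets whole kidney apart from other organs, and their levels are commonly read as a measure of tubular differentiation. Thioacetamide is oxidised to reactive products by cytochrome P450 enzymes and is best known for injuring the liver. Neither gene names nor sequences could be attached to the identifiers with the tables at hand. The members are therefore named by identifier, they could not be grouped by role, and the organ label could not be checked against marker genes.

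Libraries held 16332764 to 36303248 estimated counts, and the 30 kidney libraries 16919321 to 31562820. Liver 24 h vehicle replicate 1 and liver 8 h low replicate 1 agreed within 1 count for 15790 of the 15797 transcripts with 10 counts or more in either, and for all 200 members. The former was left out when the members were chosen, and the liver values below hold both libraries unless a value without them is given. The tests measure the spread between these rats.

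The members spanned a wide range of levels in vehicle kidney. The kidney mean was 10104 TPM for ENSRNOT00000079830, the highest, and 7056 TPM for ENSRNOT00000022074, the next, and the median of the 200 was 92.6 TPM. The highest 3 held 36.1% of the summed member level, the highest 10 held 57.7% and the highest 50 held 81.2%. The 200 made up 7.52% of the 2658 transcripts whose kidney mean was at least that of the lowest member. ENSRNOT00000079830 stood at 7134, 8698, 10945, 11307 and 13281 TPM in the 8 h vehicle kidneys and at 6782, 8420, 9315, 12464 and 12697 TPM in the 24 h vehicle kidneys, against means of 305 TPM in heart and 12.3 TPM in liver. It was the member with the highest heart level, and its ratio of 33.1 to the higher of the other organs was far under the median ratio of 206.

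Around the limits of the rule the values were close together. The 2 lowest members, ENSRNOT00000046011 and ENSRNOT00000004578, had kidney means of 36.7 and 36.4 TPM, and the next qualifying transcripts, ENSRNOT00000001586 and ENSRNOT00000088983, had 35.9 and 35.8 TPM. The smallest ratios inside the rule were 20.4 for ENSRNOT00000005206 and 20.5 for ENSRNOT00000084990, and 139 members had a ratio over 100. The vehicle mean was under 0.1 TPM for 90 members in liver, for 84 in heart and for 62 in both. At the other end, 47 members had 1 TPM or more in liver and 36 in heart. These values chose the members and are given as a description.

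**Figure D1:**
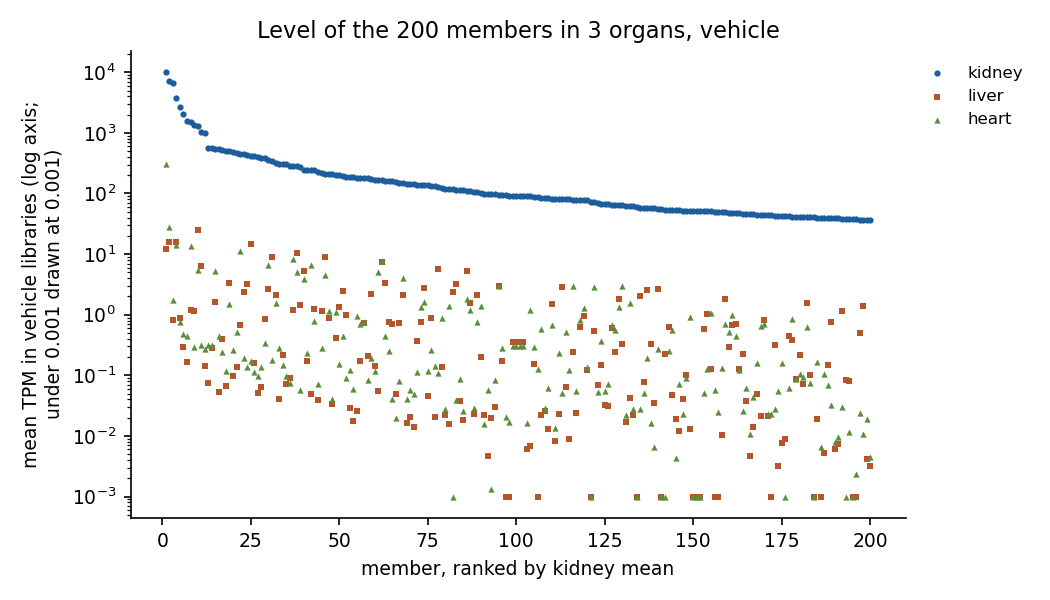
Mean TPM in vehicle libraries of kidney (10 libraries), heart (10) and liver (9) on a log axis for the 200 members, ordered by kidney mean; means under 0.001 are drawn at 0.001. Kidney means run from 10104 to 36.4 TPM, while 47 liver and 36 heart means are at 1 TPM or more, among them those of the 2 highest members.

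Length was not used by the rule. The members' annotated lengths ran from 85 to 15512 bases with a median of 1812.5, against 1281 over all transcripts and 1403.5 over the 2658 transcripts as high in kidney. There were 15 members under 300 bases, and 9 members had under 100 counts per vehicle kidney library on average, against a median of 3271 counts. Among the short ones, 4 targets of 87 bases had identical TPM in all 90 libraries, as did 3 of 85 bases. These 7 share their reads, with means of 26.6 and 14.1 counts per target, so the members held 195 distinguishable targets. In the vehicle kidneys that chose the members, the median coefficient of variation of a member between rats of the same time was 23.1%, against 18.4% over the transcripts as high in kidney. Members ranged from 7.08% to 97.4%, and 4 exceeded 50%.

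The vehicle kidneys of the 2 times, whose pooled levels chose the members, were also compared with each other. Of the 200 members, all tested, none passed the thresholds of edgeR's quasi-likelihood test (Benjamini-Hochberg adjusted p of 0.01 or less over all transcripts tested and a log2 fold change of at least 0.866 either way, which is 0.6 on the natural log scale), where 0% of the 18676 transcripts were called. At an unadjusted p under 0.05 there were 5 members and 334 transcripts in all, and DESeq2 called no member (0.0167% of 30001 transcripts). The median difference, 24 h minus 8 h on the log2 scale, was 0.06 over the members and -0.02 over all transcripts. Of the 200 members 68 were below 0, against 55.4% of all transcripts, so members leaned towards higher levels in the 24 h vehicle kidneys.

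The members stayed kidney transcripts in dosed rats, which the rule did not use. In 196 of the 200 the lowest of the 20 dosed kidney libraries lay above the highest of the 40 dosed liver and heart libraries in TPM. The same held for 6.87% of all transcripts detected in any of these libraries, and for 25.1% of those as high in vehicle kidney. Leaving out liver 8 h low replicate 1 gave the same count. Of the 4 exceptions, named after their values were seen, ENSRNOT00000067875, ENSRNOT00000056556 and ENSRNOT00000081571 reached higher levels in 1 or more dosed livers than in the lowest dosed kidney (1257 against 244 TPM, 38.2 against 9.44 and 53.5 against 24.1). ENSRNOT00000054583, of 104 bases, was at 0 in some dosed kidneys and in every dosed liver and heart. By group means, the 20-fold ratio held for 191 members after the low dose at 8 h (also without liver replicate 1), 186 after the low dose at 24 h, 186 after the high dose at 8 h and 177 after the high dose at 24 h. At the last of these, 20 members missed it against liver and 7 against heart.

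At 24 h after the high dose, members that fell in kidney far outnumbered those that rose. Of 199 members tested, 42 fell (21.1%) and 2 rose (1.01%), where over all 18967 transcripts 2.04% fell and 2.15% rose. Among transcripts as high in vehicle kidney 4.26% fell, and members were 42 of the 387 transcripts that fell (10.9%) against 1.05% of those tested. The median log2 fold change of the members was -0.48, with quartiles of -1.04 and -0.12, against 0.02 over all transcripts and -0.14 over those as high in kidney. Of the members tested, 171 had a fold change below 0 (85.9%, against 47.7% of all transcripts). In 51 members every dosed library lay below every vehicle library in TPM (3.38% of all transcripts), and in 6 every dosed library lay above (8.98%). On the log2(TPM + 1) scale the median of all transcripts shifted by 0.14, and the member median was 0.45 below that shift.

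Relative to the vehicle mean of the same time, on log2 CPM scaled by TMM (a correction for library composition), the median member stood at between -0.65 and -0.30 in these libraries, and the 5 vehicle libraries ran from -0.07 to 0.15. The groups did not overlap. The low-dose kidneys at 24 h ran from -0.42 to -0.00, and 1 of them stood among the vehicle libraries. At 8 h the ranges were -0.10 to 0.22 for vehicle, -0.19 to -0.08 for the low dose and -0.19 to -0.08 for the high dose, so that both dosed groups overlapped the vehicle group.

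**Figure D2:**
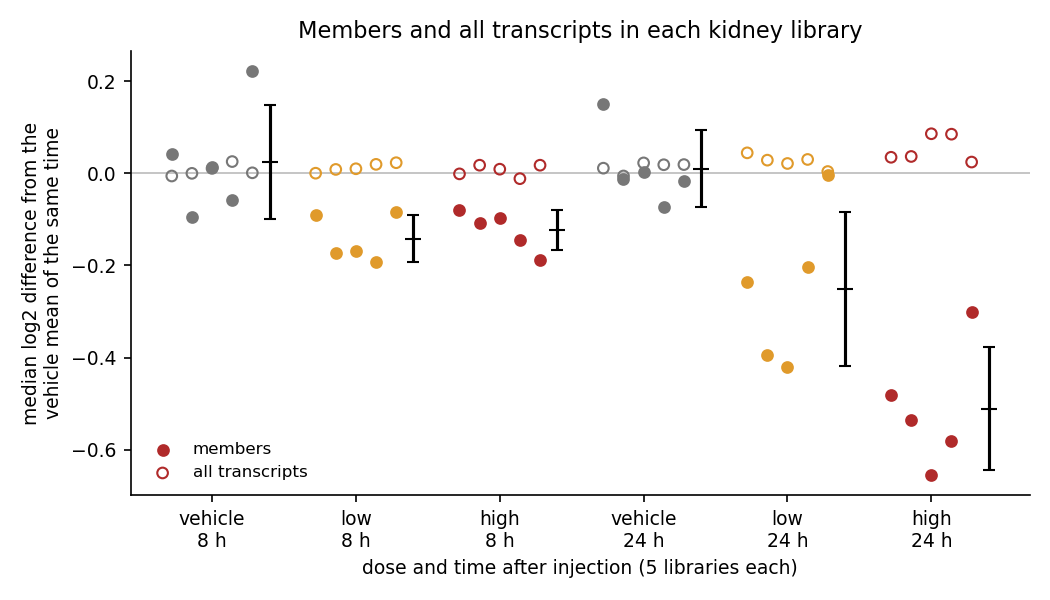
Median log2 difference of the members (filled) and of all transcripts (open) from the vehicle mean of the same time, in each of the 30 kidney libraries, on TMM-scaled CPM; black marks show the mean and SD of 5 libraries. The 5 high-dose libraries at 24 h lie between -0.65 and -0.30, under all vehicle libraries, while the open points stay near 0.

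The members' sum in kidney was 66637 ± 8622 TPM (SD, n = 5) for vehicle at 24 h, 55043 ± 2576 for the low dose and 53776 ± 6354 for the high dose. At 8 h it was 65493 ± 11317, 65824 ± 4164 and 66059 ± 3580 TPM. The vehicle sum at 24 h ran from 56497 to 78833 TPM and the high-dose sum from 45108 to 59491, so the groups overlapped. Without the 3 highest members the 24 h sum ran from 37384 to 53356 TPM for vehicle. It then ran from 28803 to 35738 TPM for the high dose, without overlap, and from 33268 to 40627 TPM for the low dose, which overlapped vehicle. The sum leans on few transcripts, and the highest, ENSRNOT00000079830, did not fall. It had 10000, 11748, 11868, 13052 and 15363 TPM after the high dose at 24 h, with a log2 fold change of 0.14 ± 0.19 (SE) and an adjusted p of 0.679 in edgeR. ENSRNOT00000022074, of 239 bases, went from 5647, 6234, 6424, 7244 and 7899 TPM to 4030, 4864, 5380, 5426 and 6266 TPM, with a log2 fold change of -0.54 ± 0.18 (SE) and an adjusted p of 0.0661 in edgeR, which misses the threshold. Of the 10 highest members, 3 fell and none rose.

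The 42 that fell were spread over the members. Of the 50 highest members 16 fell, of the next 50 there were 7, then 10 of 49 tested and 9 of the last 50, and the median log2 fold change lay between -0.52 and -0.47 in all 4 parts. By length, 8 of 50 fell among the shortest members, 14 of 49 and 12 of 50 in the next 2 parts and 8 of 50 among the longest. Of the members under 0.1 TPM in both other organs 18 of 61 fell, and of the rest 24 of 138. The log2 fold changes of the 42 ran from -3.997 to -0.90 with a median of -1.35. Between the vehicle kidneys alone, 24 h minus 8 h, the median of these 42 was 0.12, and 10 were below 0. They were called against the same 24 h vehicle libraries, which favours members higher there. The part of this lean in the falls was not tested.

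Among the members tested at 24 h after the high dose, the largest fall was that of ENSRNOT00000004578, the lowest member by vehicle level. Its vehicle kidney mean was 30.3 TPM at 8 h and 42.4 TPM at 24 h. The 24 h vehicle libraries, against which this fall is measured, thus also helped to place it among the members. In 24 h vehicle kidneys it stood at 33.9, 35.8, 36.04, 43.1 and 63.2 TPM, after the low dose at 2.92, 12.9, 13.1, 13.4 and 14.5 TPM, and after the high dose at 1.64, 2.78, 2.94, 3.31 and 4.20 TPM. Neither dosed group overlapped the vehicle group. The log2 fold change was -3.997 ± 0.29 (SE) after the high dose, a 15.96-fold lower level, with an adjusted p of 1.3e-05 in edgeR. After the low dose it was -2.03 ± 0.39 (SE), where the adjusted p of 0.0601 misses the threshold. At 8 h the high-dose libraries held 21.3 to 26.3 TPM and the vehicle libraries 16.2 to 35.3 TPM, which overlap. The member not tested after the high dose, ENSRNOT00000054583, of 104 bases, did not pass the filter on low counts. At 24 h it ran from 17.9 to 129.7 TPM in vehicle kidneys and from 0 to 3.22 TPM after the high dose. At 8 h the ranges were 22.3 to 173.8 TPM and 0 to 13.3 TPM. These levels rest on a mean of 20.9 counts per vehicle kidney library.

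The other of the 2 largest falls at 24 h after the high dose, among the members tested, was that of ENSRNOT00000091983, of 922 bases. It went from 44.7, 51.7, 58.8, 75.3 and 104.9 TPM in 24 h vehicle kidneys to 6.25, 7.31, 10.4, 12.2 and 15.2 TPM after the low dose and 6.54, 7.76, 9.89, 9.97 and 10.7 TPM after the high dose. Both dosed groups lay under every vehicle library. The log2 fold changes were -2.81 ± 0.35 (SE) and -3.07 ± 0.25 (SE), with adjusted p-values of 0.00943 and 2.77e-05 in edgeR. The 2 values share their vehicle libraries. At 8 h both dosed groups also lay under every vehicle library. The ranges were 46.6 to 87.1 TPM for vehicle, 15.9 to 40.7 for the low dose and 17.1 to 44.8 for the high dose. The log2 fold changes at 8 h were -1.04 ± 0.27 (SE) and -0.93 ± 0.28 (SE). Their adjusted p-values of 0.109 and 0.0735 in edgeR miss the threshold.

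ENSRNOT00000010788 and ENSRNOT00000010811 were the 2 members that rose in kidney at 24 h after the high dose. The former went from 24.1, 24.9, 39.1, 43.6 and 55.8 TPM to 73.4, 98.2, 119.1, 121.5 and 157.8 TPM, without overlap, a log2 fold change of 1.42 ± 0.23 (SE) and an adjusted p of 0.0021 in edgeR. After the low dose it ran from 32.6 to 163.9 TPM and did not pass. The latter went from 217.9, 267.7, 288.1, 295.5 and 324.4 TPM to 471.8, 531.0, 601.6, 620.3 and 943.4 TPM, again without overlap, with a log2 fold change of 0.99 ± 0.15 (SE) and an adjusted p of 0.00121 in edgeR. Without high-dose replicate 2, the library of highest value, its log2 fold change was 0.85, just under the limit on size. Its low-dose libraries, from 325.2 to 578.9 TPM, also lay above every vehicle library, although their adjusted p was 0.182 in edgeR.

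**Figure D3:**
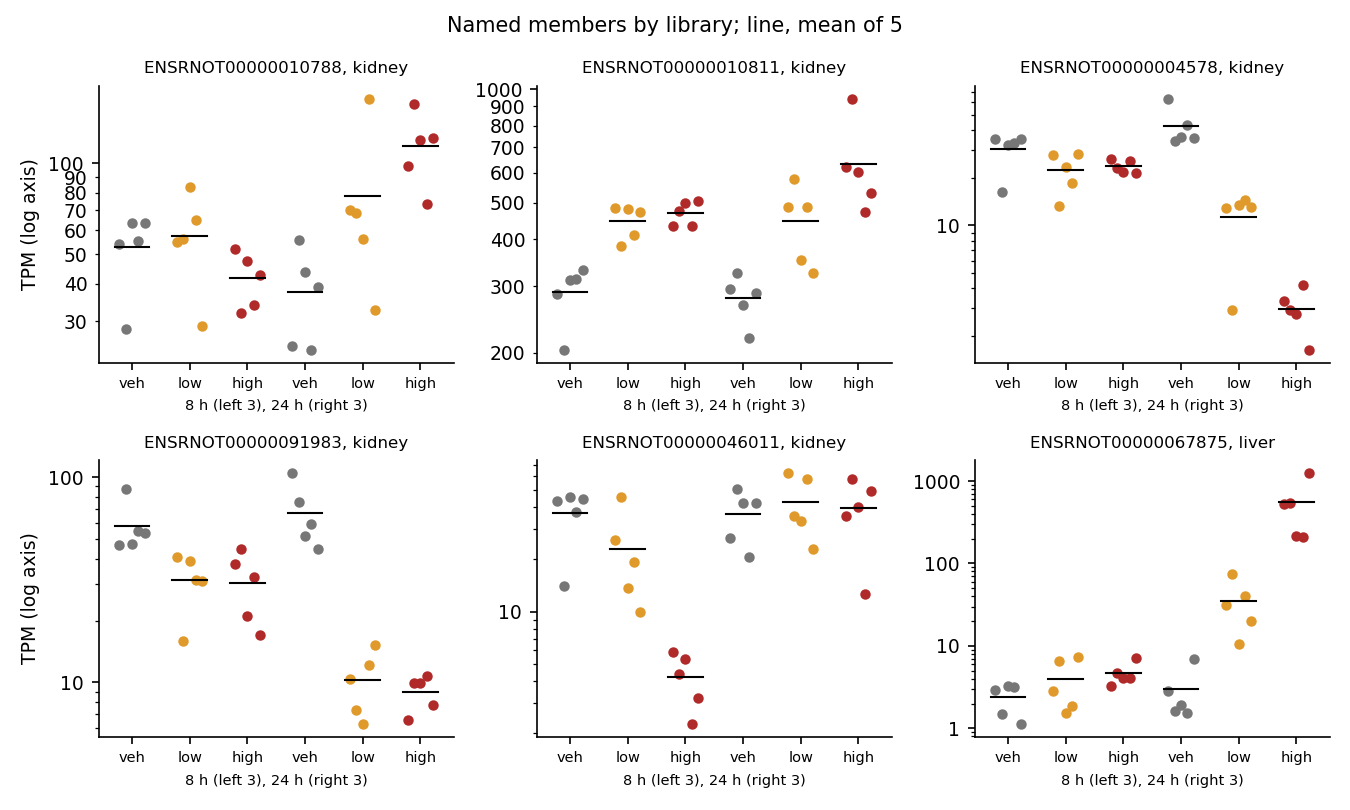
TPM on a log axis in each library, by dose (veh, vehicle) and time, for 5 members in kidney and 1 in liver; points are libraries and lines are means of 5. Every dosed kidney lies under every vehicle kidney at 24 h for ENSRNOT00000004578 and at both times for ENSRNOT00000091983. For ENSRNOT00000046011 this holds only at 8 h after the high dose. ENSRNOT00000067875 in liver passes 200 TPM in every high-dose library at 24 h.

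After the low dose at 24 h few members passed. Of 200 tested, 1 fell, ENSRNOT00000091983, and none rose, where 0.0216% of 18559 transcripts fell and 0.0377% rose. The median member was at -0.24 against 0.02 over all transcripts, 172 were below 0 of the 200, and in 17 every dosed library lay below every vehicle library (0.744% of all transcripts). At an unadjusted p under 0.05 there were 65 members (32.5%, against 11.5% of all transcripts). DESeq2 called 18 members, where it called 0.52% of 29801 transcripts. Without low replicate 5 edgeR called 3, and without any other library of this comparison it called none. On the log2(TPM + 1) scale all transcripts shifted by 0.16 and the members' median was -0.04, which is 0.20 below that shift. The 42 members that fell after the high dose had a median of -0.71 in the low-dose comparison, with the same vehicle libraries.

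At 8 h the high dose gave 7 falls and no rise among 199 members tested, where 0.409% of 18597 transcripts fell and 1.09% rose. The median member was at -0.10 and the median transcript at -0.03, and 127 members (63.8%) were below 0 against 53.1% of all transcripts. The largest change among those tested was that of ENSRNOT00000046011. It went from 14.1, 37.3, 43.2, 44.2 and 45.8 TPM in vehicle to 2.25, 3.21, 4.38, 5.37 and 5.89 TPM. The log2 fold change was -3.13 ± 0.33 (SE) with an adjusted p of 0.000309 in edgeR. The other 6 had log2 fold changes between -1.45 and -0.89. In 10 members every dosed library lay below every vehicle library (2.14% of all transcripts). The count of calls rests on few libraries. It was 18 without vehicle replicate 2, which held the highest vehicle value for 75 members and the lowest for 66, 3 without vehicle replicate 5, 2 without vehicle replicate 3 or 4 or high replicate 5, and 1 without vehicle replicate 1 or high replicate 2, 3 or 4. Of the 5 high-dose libraries 3 were numbered above 90 by the submitters, against 1 of 5 vehicle libraries. With that number as a covariate, or within the libraries numbered up to 90, 2 members were called, and ENSRNOT00000046011 passed in both.

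After the low dose at 8 h, 1 member of 200 rose and none fell, where 0.175% of 18829 transcripts rose and 0.0425% fell. The riser, ENSRNOT00000011434, had a log2 fold change of 0.90 ± 0.13 (SE) and an adjusted p of 0.00806 in edgeR; it is named because the count is 1. There was no call without any 1 of vehicle replicates 1, 3, 4 and 5 or low replicates 1 to 4, and 2 calls without vehicle replicate 2. The median member was at -0.15 against -0.03 over all transcripts, and 159 members (79.5%) were below 0 against 55.2% of all transcripts. At an unadjusted p under 0.05 there were 42 of the 200 members, against 11.9% of all transcripts. On the log2(TPM + 1) scale, where the median of all transcripts moved by 0.10, the member median turned to 0.01, which is 0.09 below that shift.

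**Figure D4:**
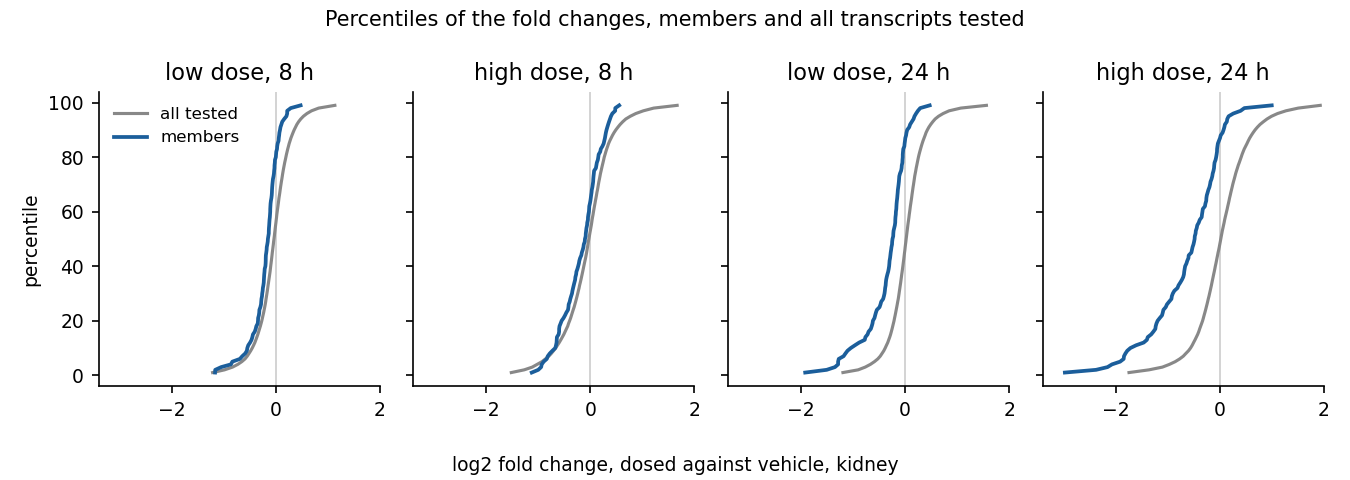
Percentiles 1 to 99 of the log2 fold change, dosed against vehicle, for the members (blue) and for all transcripts tested (grey) in the 4 kidney comparisons. At 8 h the member medians stand at -0.15 (low) and -0.10 (high) against -0.03 over all transcripts in both. At 24 h they stand at -0.24 (low) and -0.48 (high) against 0.02 in both.

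The difference between the high-dose effects at 24 h and 8 h was tested directly. In the edgeR interaction of dose and time, at an adjusted p of 0.01 or less with no limit on size, 15 of 200 members had a lower effect at 24 h and 2 a higher one, where 0.591% and 0.276% of 19959 transcripts did. The median difference was -0.36 over the members and 0.06 over all transcripts. Of the 15, 14 were among the 42 that fell at 24 h (93.3% of the former and 33.3% of the latter). Both tests use the same 24 h libraries, so much of this overlap is built in. The difference was -3.63 ± 0.34 (SE, adjusted p = 7.28e-06, edgeR) for ENSRNOT00000004578 and -2.12 ± 0.39 (SE, adjusted p = 0.00515, edgeR) for ENSRNOT00000091983. Between the vehicle kidneys alone, 24 h minus 8 h, these 2 differed by 0.53 ± 0.21 and 0.23 ± 0.25 (SE), neither of them called. Over the 42 that fell at 24 h, the median of this vehicle difference was 0.12. The vehicle libraries of both times enter the interaction, where a higher vehicle level at 24 h counts as a lower effect. Its part in the calls was not tested. Without high-dose 24 h replicate 4 there were 26 calls instead of 17, and DESeq2 gave 32, where it called 1.52% of 31761 transcripts. The calls of ENSRNOT00000091983 and ENSRNOT00000010788 were each lost when any 1 of 8 libraries was left out.

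The 2 with a higher effect at 24 h had different courses. ENSRNOT00000010788 did not change at 8 h by the test and rose at 24 h, a difference of 1.77 ± 0.32 (SE, adjusted p = 0.0043, edgeR). ENSRNOT00000046011 fell at 8 h and had 12.7, 35.6, 40.2, 49.2 and 58.2 TPM at 24 h after the high dose, within the spread of 20.7, 26.5, 41.9, 42.3 and 50.7 TPM in vehicle, a difference of 3.04 ± 0.48 (SE, adjusted p = 0.00154, edgeR). Of the 7 members that fell at 8 h, 4 were among the 42 that fell at 24 h (57.1% of the former and 9.52% of the latter). At 24 h 21.1% of all members tested and 2.04% of all transcripts tested fell. The 8 h and 24 h comparisons have no sample in common.

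**Figure D5:**
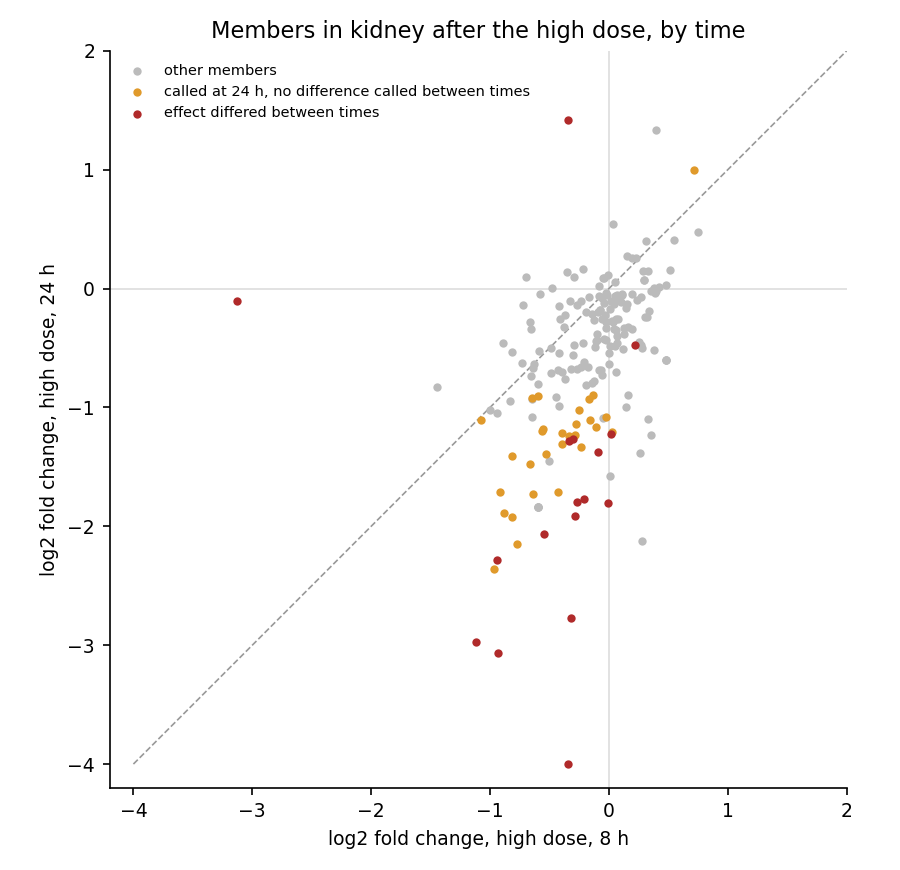
Log2 fold change of each member tested in kidney after the high dose at 8 h (x) and at 24 h (y). The dashed line marks equal change. Most members called at 24 h lie below the line, and ENSRNOT00000046011, at -3.13 and -0.10, stands alone on the left.

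The vehicle samples of these comparisons also served to choose the members. With 200 members chosen on the 8 h vehicle samples alone, 193 were the same, and 41 fell and 2 rose at 24 h after the high dose. Within the libraries numbered up to 90, 4 of 5 in each of these groups, 49 members fell and 2 rose. The share over all transcripts in that fit is not given, so this count is a description only.

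In liver, where members are near the floor, only 74 were tested at 8 h and 77 at 24 h after the high dose. Of these, 15 and 24 passed the filter on low counts only with the help of dosed libraries, which favours members higher there. Of the 24, 1 was called as a fall. At 8 h 7 members rose and 8 fell, where 12.4% of 16468 transcripts rose and 7.75% fell, and 6 and 8 of these were among the 59 that passed on the vehicle libraries alone. At 24 h 15 rose and 11 fell, where 7.44% of 16749 transcripts rose and 8.85% fell, and 13 and 10 of these were among the 53 that passed on the vehicle libraries alone. Without vehicle replicate 1 there were 18 rises and 17 falls at 24 h, and without high replicate 5 there were 11 and 6. The shares over all transcripts in these fits are not given. Whether the changes in count are particular to the members was not tested. On the log2(TPM + 1) scale at 24 h the median liver transcript shifted by 0.65 and the member median by 0.44, and limma called 22 rises and 4 falls, where 30.9% of transcripts rose and 2.61% fell.

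The largest rise in liver TPM, 548 TPM of a rise of the mean sum from 253 TPM (215 without vehicle replicate 1) to 1215 TPM at 24 h, was that of 1 transcript, chosen after its values were seen. ENSRNOT00000067875, of 1467 bases, stood at 1.56, 1.63, 1.94, 2.83 and 6.94 TPM in 24 h vehicle livers, at 10.4, 20.01, 31.6, 40.2 and 73.9 TPM after the low dose and at 212.1, 216.9, 530.4, 538.8 and 1257 TPM after the high dose. The 3 groups did not overlap. The high-dose log2 fold change in liver was 6.52 ± 0.74 (SE, adjusted p = 0.000199, edgeR), and 6.27 without vehicle replicate 1. At 8 h the high-dose livers held 3.25 to 7.21 TPM and the vehicle livers 1.12 to 3.25 TPM, which did not pass (adjusted p = 0.131, edgeR). In kidney the same transcript ran from 232.2 to 478.8 TPM in 24 h vehicle and from 555.1 to 2246 TPM after the high dose, without overlap, and the log2 fold change of 1.34 ± 0.36 (SE) had an adjusted p of 0.0295 in edgeR, which misses the threshold.

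The members' sum in liver at 24 h was 188 to 404 TPM for vehicle, 406 to 745 for the low dose and 611 to 2076 for the high dose. Without ENSRNOT00000067875 it was 186 to 401, 396 to 725 and 398 to 819 TPM, and the highest vehicle value was replicate 1, without which vehicle reached 237 TPM. Traces of many members moved with single libraries. The number of members over 0.2 TPM was 155 in liver 24 h low replicate 5, 128 in liver 8 h low replicate 5 and 125 in liver 24 h high replicate 5, where the vehicle livers had 75 to 94. In heart it was 154 in 8 h low replicate 3, 136 in 24 h vehicle replicate 5 and 115 in 24 h low replicate 4, against 62 to 99 in the other heart libraries. Their part in the results was not tested.

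In heart, 61 and 59 members were tested after the high dose at 8 h and 24 h. Of these, 17 and 16 passed the filter on low counts only with the help of dosed libraries, which favours members higher there. The share of members at an unadjusted p counts them too, so it is given as a description. No member was called at 8 h by edgeR (0.0171% of 17519 transcripts), with 14 members (22.95%) at an unadjusted p under 0.05 against 9.69% of all transcripts, and DESeq2 called 1 member (0.168% of 29232 transcripts). At 24 h 4 rose and none fell, where 0.677% of 17574 transcripts rose and 0.245% fell, and all 4 passed the filter on the vehicle libraries alone. Without vehicle replicate 3 there were 2 rises, and ENSRNOT00000010811 then missed the threshold (adjusted p = 0.0104, edgeR). The 4 were ENSRNOT00000010811, ENSRNOT00000000203, ENSRNOT00000023926 and ENSRNOT00000035523, named because they are few, with log2 fold changes of 1.05, 1.73, 1.17 and 1.03.

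ENSRNOT00000010811 rose in each of the 3 organs measured in high-dose rats at 24 h. In liver it went from 0.841, 0.946, 1.10, 1.37 and 4.53 TPM to 8.22, 11.9, 13.5, 15.1 and 16.7 TPM, where the 4.53 TPM is vehicle replicate 1, one of the near-identical pair. The liver log2 fold change was 2.20 ± 0.32 (SE, adjusted p = 0.000601, edgeR) and 2.48 without that library. In heart it went from 6.47, 7.57, 8.20, 8.71 and 12.4 TPM to 13.7, 16.9, 18.7, 19.1 and 20.01 TPM, a log2 fold change of 1.05 ± 0.15 (SE, adjusted p = 0.0024, edgeR). Neither organ's groups overlapped. At 8 h after the high dose ENSRNOT00000010811 was already higher, without overlap, in each organ. The log2 fold change then was 1.58 ± 0.17 (SE, adjusted p = 3.54e-05, edgeR) in liver, which passed. In kidney it was 0.71 ± 0.13 (SE, adjusted p = 0.00874, edgeR), under the limit on size. In heart it was 0.61 ± 0.12 (SE, adjusted p = 0.091, edgeR), which misses the threshold.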

How the data were processed

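Poly-A RNA of 90 samples was sequenced as stranded paired-end libraries. Per the labels and the study's methods, the authors pseudoaligned reads with kallisto 0.42.2 to the Rnor_6.0 Ensembl transcriptome and deposited, for each of 65166 targets, an estimated count and a TPM value. Of these targets 40071 are transcripts and 25095 are genomic intervals, which were left out of the tests. Estimated counts of transcripts that share sequence are split by the model, so single transcripts of a gene are less certain than their counts imply.

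Groups were taken from the sample labels. The members and the lists were chosen with earlier results of these data known. Estimated counts as deposited by the authors were rounded to whole numbers, filtered with filterByExpr, scaled by TMM and tested with edgeR 4.0.16 (quasi-likelihood test) in R 4.3.3 over all transcripts, with Benjamini-Hochberg adjustment. The 5 samples of a dose were set against the 5 vehicle samples of that organ and time. Calls needed an adjusted p of 0.01 or less and a natural-log fold change of at least 0.6, or the adjusted p alone in the interaction. Levels are TPM as deposited by the authors. Members were named by a rule. It took the 2 of highest vehicle level and those next to the limits of the selection. Among members called in kidney without overlap, it took the 2 that rose and the 2 that fell most. For these the high dose at 24 h came first and the high dose at 8 h next. Others were named after their values were seen. Gene lists by symbol could not be applied, since no reference table used here holds these identifiers.

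Alternatives were DESeq2 1.42.0, limma 3.58.1 on log2 TPM with a pseudocount of 1 or of 0.1, other scaling, filters, samples and member rules, and leaving out each replicate. On simulated counts of the 24 h high-dose kidney comparison over 16636 transcripts, edgeR called 187 of 200 changed transcripts (93.5%) and 2 unchanged ones. Python 3.11.15 with pandas 2.3.3, numpy 2.4.6 and matplotlib 3.10.9 was used for summaries and plots. Library totals limit precision most for members of short length and low count.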

Additional observations from a re-analysis of the deposited data

Results flagged for a closer look

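In 66 groups of 5 samples examined for a library far from the others, 9 had one. The rule used would flag about 1 in 20 if the groups were independent and their values normally distributed. These groups share libraries and hold TPM of transcripts partly named for large changes, so the 2 rates cannot be compared. Kidney 8 h vehicle replicate 2 accounted for 5 of the 9. It held 12655 TPM of ENSRNOT00000022074 against 4616 to 6851 in the other vehicle libraries, and 87.1 TPM of ENSRNOT00000091983 against 46.6 to 54.8. It was the lowest for ENSRNOT00000010788 (28.3 TPM against 54.2 to 63.6), ENSRNOT00000004578 (16.2 TPM against 31.99 to 35.3) and ENSRNOT00000046011 (14.1 TPM against 37.3 to 45.8). After the low dose at 24 h, kidney replicate 4 held 164 TPM of ENSRNOT00000010788 against 32.6 to 70.3, and kidney replicate 2 held 2.92 TPM of ENSRNOT00000004578 against 12.9 to 14.5. In liver 24 h vehicle, the summed member level was 404 TPM in replicate 1, one of the near-identical pair, against 188 to 239, and ENSRNOT00000067875 stood at 6.94 TPM in replicate 5 against 1.56 to 2.83.

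The high-dose effect in kidney differed between 24 h and 8 h for 17 members by the edgeR interaction test. Among the named members the log2 difference, 24 h minus 8 h, was -3.63 for ENSRNOT00000004578, -2.12 for ENSRNOT00000091983, 1.77 for ENSRNOT00000010788 and 3.04 for ENSRNOT00000046011.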

How the results depend on the processing

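No paired analysis was possible because vehicle and dosed groups of an organ are different rats and the labels carry no replicate numbers shared between them. In kidney at 24 h after the high dose the 44 calls lay between 33 and 59 under every alternative that kept 200 members, 35 to 54 when 1 library was left out, and were 24 among the 100 highest members. After the high dose at 8 h the 7 calls became 12 with DESeq2, 3 with limma on log2(TPM + 1), 2 with log2(TPM + 0.1), 2 with library number as a covariate, 2 within libraries numbered up to 90, 3 among the 100 highest, and 1 to 18 without 1 library. After the low dose the single call at 8 h became 4 with DESeq2, 3 with all 15 samples in 1 fit, 3 with the library number covariate, 3 within libraries numbered up to 90 and 0 to 2 without 1 library. The single call at 24 h became 18 with DESeq2, 3 with all 15 samples, 0 with log2(TPM + 0.1), the covariate or the 100 highest, and 0 to 3 without 1 library. The 17 interaction calls became 32 with DESeq2, 7 among the 100 highest and 13 to 26 without 1 library. Leaving out 1 library gave 17 to 35 calls in liver at 24 h, 10 to 17 at 8 h, and 2 to 4 in heart at 24 h, and DESeq2 gave 1 in heart at 8 h. Among the 100 highest members 99 (of 196 in the whole list) kept every dosed kidney above liver and heart, and 87 (of 170) kept the 20-fold ratio in every dosed group. The members' median after the low dose at 8 h turned from -0.15 to 0.012 on both TPM scales, where the median of all transcripts was 0.10 and 0.14. The fits within libraries numbered up to 90 and those counting identical targets once were chosen after seeing the data. The counts of this paragraph are given without the share over all transcripts in each fit. So are the counts above from fits with 1 library left out, with the library number covariate or within libraries numbered up to 90. The causes of these differences were not tested.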
